A study of Mus musculus with 19 samples.

Results

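The proteasome genes of 3 successive mouse bone marrow progenitor populations were examined in the deposited RNA-seq table. The members were all rows whose symbol begins with Psma, Psmb, Psmc, Psmd, Psme, Psmf or Psmg followed by a digit. This name rule matched 50 of 18607 rows, and the pseudogene Psmb6-ps2 was left out, so 49 genes remained. They comprise 8 genes of the alpha ring of the 20S core particle, 4 structural, 3 constitutive catalytic and 3 immune catalytic beta subunit genes, 6 ATPases and 11 other subunits of the 19S regulatory particle. The remaining members are 3 assembly chaperones of the 19S and 4 of the 20S particle, 5 activators, 1 inhibitor and 1 gene that matches by name only. Psmc3ip, the last of these, encodes a protein of meiotic recombination and not of the proteasome. Psmb11, the thymic catalytic subunit, was not analysed here.

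All libraries were made from sorted bone marrow cells of C57BL/6 mice. The 7 libraries of all-lymphoid progenitors (ALP) and the 7 of early innate lymphoid progenitors (EILP) came from Tcf7EGFP/+ mice, which carry a green fluorescent reporter in 1 allele of the transcription factor gene Tcf7. Of the 5 libraries of innate lymphoid cell progenitors (ILCp), replicates 1 to 3 had that genotype and replicates 4 and 5 were Plzf-cre-GFP/+, a reporter of the gene Zbtb16. Every gate was linlow, Ly-6Dlow and Kitpos. ALP were also IL-7Rapos and Flt3high. EILP and ILCp were CD122low and GFPhigh, and were divided by Thy-1.2low with IL-7Ra int/low (EILP) against Thy-1.2pos with IL-7Rahigh and a4b7pos (ILCp). The labels do not say how many animals, or of what age, a library came from or whether libraries share animals, so p-values measure only the spread between these samples.

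The proteasome is the main protease of the cytosol and nucleus for proteins tagged with ubiquitin. The 19S particle binds, unfolds and feeds them into the barrel-shaped 20S core, where 3 beta subunits cut them into peptides. Psmb5, Psmb6 and Psmb7 are the constitutive cutting subunits, and Psmb8, Psmb9 and Psmb10 take their places in the immunoproteasome of lymphoid and interferon-treated cells, whose peptides are loaded on MHC class I.

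The values are levels on the log2 CPM scale, in which CPM are read counts scaled to the size of the library, so that sequencing depth cannot be read from them. A gene is called where limma, with the groups and 5 sequencing batches in 1 model over all 19 libraries, gave a Benjamini-Hochberg adjusted p below 0.05 over all 18607 genes. The 5 genes Tcf7, Tox, Id2, Gata3 and Zbtb16 summed to 39.3 to 73.9 CPM in ALP, 1377 to 10209 in EILP and 3208 to 5690 in ILCp. This sum separated ALP from the other groups but not EILP from ILCp. EILP and ILCp were sorted on a reporter of Tcf7 or Zbtb16. Il7r, Thy1, Itga4 and Itgb7, which include gated antigens, summed to 330 to 721 CPM in ALP, 1054 to 1514 in EILP and 1772 to 2791 in ILCp. From EILP to ILCp 3 of these 4 lay above 0, and Itga4 was at -0.62 log2. Of the 49 members, 48 had a mean level above 0 log2 CPM. The exception was Psma8, the testis form of an alpha ring subunit, which stood at 5.35 log2 CPM in ALP replicate 6 and between -2.64 and 1.54 in the other 18 libraries.

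The share of the proteasome genes in the summed CPM of all genes was lower in ILCp than in EILP. The 49 genes together made up 1.12% ± 0.11 (SD, n = 7) of the summed CPM in ALP, 1.25% ± 0.056 (SD, n = 7) in EILP and 1.02% ± 0.072 (SD, n = 5) in ILCp. The EILP libraries ran from 1.15% to 1.33% and the ILCp libraries from 0.959% to 1.11%, without overlap. ALP libraries, at 0.964% to 1.30%, overlapped both. Before division by the total of the library, EILP and ILCp overlapped. The 49 genes summed to 10673 CPM in EILP 1 and to 10911 in ILCp 1. In bulk samples, fewer cells of a type and less RNA per cell cannot be told apart.

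**Figure D1:**
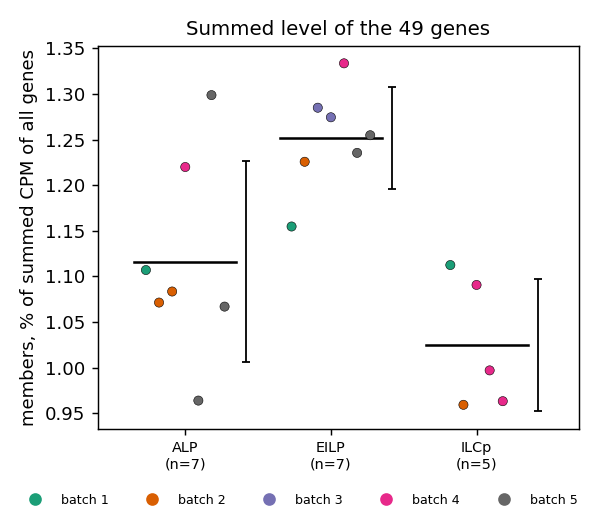
Share of the 49 proteasome genes in the summed CPM of all genes (%), 1 point per library, coloured by sequencing batch, with the group mean (line) and SD (bar). The EILP libraries lie between 1.15% and 1.33%, all above the ILCp libraries at 0.959% to 1.11%.

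From EILP to ILCp, 6 of the 49 members fell and none rose. The 6 were the alpha ring gene Psma5, the catalytic genes Psmb5 and Psmb9, the ATPase genes Psmc2 and Psmc5, and the assembly chaperone gene Psmg2. Among all genes, 3.21% were called in this comparison, 1.46% lower and 1.76% higher, and 12.2% of the members were called lower. Below 0 lay 44 of the 49 fold changes, with a median of -0.32 log2, against 53.8% of all genes and a median of -0.08. Among the 3711 genes with a mean above 6 log2 CPM, 59.2% lay below 0, with a median of -0.11. In 12 members, 24.5%, every ILCp library lay below every EILP library, against 5.34% of all genes. No member was above in this way, against 3.35% of all genes. At an unadjusted limma p below 0.05, 18 members were lower, against 9.28% of all genes, and 0 higher.

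Batches contributed unequally to that direction. In batch 4, which holds 3 ILCp libraries and 1 EILP library, 47 members were lower in ILCp, with a median difference of -0.47. Batch 2 had 39 below 0 (median -0.39) and batch 1 only 24 of 49 (median 0.02), each from 1 library per group. Leaving out batch 4 keeps only ILCp 1 and 2 of that group. Then 33 members lay below 0 with a median of -0.21, and 1 gene, Psmc5, was still called. Over all genes 157 were called lower in that setting, with a median of -0.02, against 271 in the main model. Both Plzf-cre-GFP/+ libraries, ILCp 4 and 5, are in batch 4, so batch and genotype cannot be fully told apart. Without these libraries 42 members lay below 0 with a median of -0.25, and 3 were called. Over all genes 124 were then called lower, with a median of -0.08. The 6 called genes were lower in ILCp in each of batches 1, 2 and 4.

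Myeloid markers were spread unevenly over the same groups. The 7 myeloid markers, Mpo, Elane, Ctsg, Lyz2, S100a8, S100a9 and Csf1r, summed to 484 to 6175 CPM in ALP, 1435 to 40509 in EILP and 75.0 to 1575 in ILCp, so that EILP and ILCp overlapped. The upper end in EILP was 1 library, EILP 2, and the next highest, EILP 6, was at 6352 CPM. Mpo alone made up 77.4% to 95.5% of the sum in every ILCp library and in every EILP library but EILP 2. In EILP 2 the highest was Elane, with 67.0%. Without EILP 2, 3 members were called lower in ILCp than in EILP, and 45 lay below 0 with a median of -0.29 log2. Over all genes 139 were then called lower, against 271 in the main model. None of the 7 markers had a mean level below 0 log2 CPM in any group. All 7 had fold changes below 0 in ILCp against EILP, and 1 of them fell. Of all genes, 53.8% lay below 0 and 1.46% were called lower. The part of other cells in the proteasome values was not tested.

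**Figure D2:**
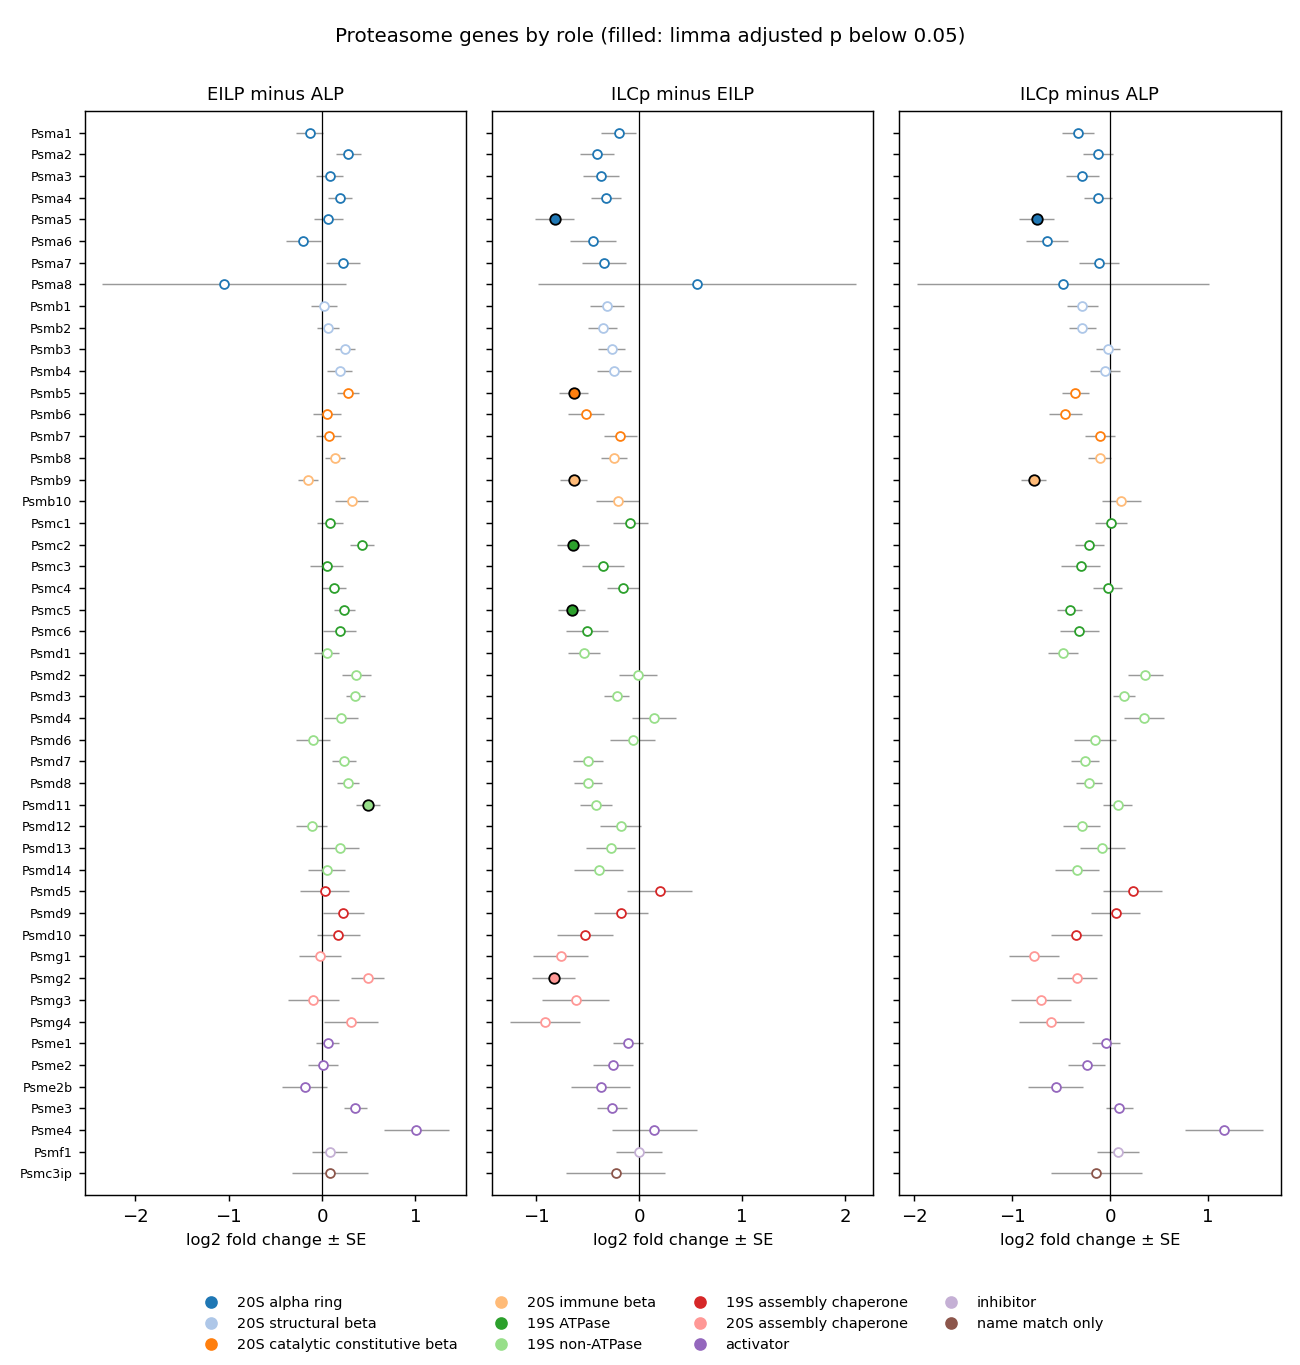
Log2 fold changes with standard errors from limma for the 49 members (rows, coloured by role) in EILP minus ALP, ILCp minus EILP and ILCp minus ALP. Filled points have an adjusted p below 0.05: 1 gene above 0 in the left panel, 6 below 0 in the middle panel and 2 below 0 in the right panel.

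In the alpha ring, which forms the gated mouth of the core, Psma5 fell. Psma5 (chr3:108256926-108279974, GRCm38) stood at 7.63, 7.30, 8.07, 7.43 and 7.56 log2 CPM in ILCp replicates 1 to 5. It ran from 8.29 to 8.74 in EILP (median 8.35) and from 8.04 to 8.85 in ALP (median 8.24). Every ILCp library was below every EILP library, and only ILCp replicate 3 reached into the ALP range. The fold change was -0.82 ± 0.19 log2 (SE) against EILP (limma adjusted p = 0.026) and -0.75 ± 0.18 against ALP (limma adjusted p = 0.0158). Leaving out any 1 of 6 libraries, EILP 2 or 5 or ILCp 1, 2, 4 or 5, ended the call against EILP (limma adjusted p 0.0513 to 0.128). The call against ALP was lost without ILCp 2 alone among the single libraries (limma adjusted p = 0.13). The other 7 alpha ring genes did not pass against EILP, and their fold changes ran from -0.44 for Psma6 to 0.56 for the low-level Psma8. Exons of Psma5 overlap 1700010K24Rik on the other strand, and the library kit does not mark strand.

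The 4 structural beta genes, Psmb1 to Psmb4, complete the inner ring without an active site of their own. Their ILCp minus EILP fold changes lay close together, from -0.35 log2 for Psmb2 to -0.24 for Psmb4, and none passed.

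Among the 6 ATPases, the motor ring that unfolds substrates, Psmc5 and Psmc2 fell from EILP to ILCp. Psmc5 (chr11:106256154-106263120) stood at 7.06, 7.08, 7.15, 7.29 and 6.80 log2 CPM in ILCp, 7.55 to 7.96 in EILP (median 7.74) and 7.39 to 7.61 in ALP (median 7.48). ILCp thus lay below both other groups without overlap. The fold change against EILP was -0.65 ± 0.13 log2 (SE, limma adjusted p = 0.0141), and no single library ended the call. Against ALP it was -0.41 ± 0.13 (limma adjusted p = 0.0569).

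Psmc2 (chr5:21785283-21803787) reached 6.86, 7.20, 7.37, 6.96 and 7.26 log2 CPM in ILCp, 7.45 to 7.94 in EILP (median 7.83) and 7.12 to 7.47 in ALP (median 7.39). EILP was the high group here, and ILCp and ALP overlapped. Its fold change was -0.64 ± 0.16 log2 (SE) from EILP to ILCp (limma adjusted p = 0.0346). Leaving out any 1 of 7 libraries, EILP 1, 5, 6 or 7 or ILCp 1, 2 or 4, ended that call (limma adjusted p 0.0525 to 0.108), and it was lost in 13 of 34 settings in all. From ALP to EILP it was 0.43 ± 0.13 (limma adjusted p = 0.077). All 6 ATPase genes lay below 0 in ILCp against EILP, Psmc1 least at -0.08, and all 6 lay above 0 in EILP against ALP, Psmc3 least at 0.05.

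None of the 11 non-ATPase subunits of the 19S particle passed from EILP to ILCp, although 10 had negative fold changes. They ran from -0.53 log2 for Psmd1, a scaffold subunit (limma adjusted p = 0.0772), to 0.14 for the ubiquitin receptor Psmd4. Within batches 1, 2 and 4 Psmd4 was at 0.16, 1.04 and -0.22. In Psmd1, Psmd7, Psmd8 and Psmd11 the libraries of the groups did not overlap. The 19S assembly chaperones ranged from -0.52 for Psmd10, also known as gankyrin, to 0.20 for Psmd5, and none passed.

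The 4 chaperones that assemble the 20S core had the lowest median of any role, -0.79 log2 from EILP to ILCp, and 1 of them, Psmg2, fell. Psmg2 (chr18:67641599-67654162), a partner of Psmg1 in building the alpha ring, stood at 6.03, 5.89, 5.97, 6.59 and 6.13 log2 CPM in ILCp. It ran from 6.75 to 7.15 in EILP (median 6.94) and from 6.17 to 6.88 in ALP (median 6.38). ILCp and EILP did not overlap, and ILCp replicate 4 lay inside the ALP range. The fold change was -0.83 ± 0.21 log2 (SE, limma adjusted p = 0.0429), and leaving out any 1 of 10 libraries ended the call (limma adjusted p 0.053 to 0.152). The others were at -0.76 for Psmg1, -0.62 for Psmg3 and -0.91 for Psmg4. Against ALP the median of the 4 was -0.65 and none passed. Pomp, the chaperone of the beta ring that lies outside the name rule, was at -0.15 ± 0.21 from EILP to ILCp (limma adjusted p = 0.775).

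The activators open the core in place of the 19S particle, and none of the 5 passed in any comparison. Psme1 and Psme2, which form the interferon-inducible activator, had fold changes of -0.10 and -0.25 log2 from EILP to ILCp, and Psme2b, a copy of Psme2 whose reads could be shared with it, had -0.37. Psme4, the large single-chain activator of the nucleus, was spread widely in ALP, from 3.94 to 6.01 log2 CPM (median 4.95). It ran from 5.24 to 6.68 in EILP (median 6.08) and stood at 6.56, 6.40, 6.07, 6.52 and 5.51 in ILCp. ALP overlapped both other groups through its highest libraries. Psme4 had the largest positive fold changes of any member, 1.01 ± 0.35 log2 (SE) in EILP against ALP (limma adjusted p = 0.123) and 1.16 ± 0.40 in ILCp against ALP (limma adjusted p = 0.0925). The inhibitor gene Psmf1 lay between 0.00 and 0.08 in the 3 comparisons, and Psmc3ip between -0.23 and 0.08.

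From ALP to EILP, the first step of the series, 1 of the 49 members rose and none fell. Among all genes, 5.05% were called, 2.25% higher and 2.79% lower, and 2.04% of the members were called higher, so the share of members was near that of all genes. Of the fold changes 40 lay above 0, with a median of 0.13 log2, against 49.6% of all genes and a median of 0. The gene that rose was Psmd11, a subunit that helps to hold the 19S particle on the core (chr11:80428615-80473248). It ran from 7.23 to 7.34 log2 CPM in EILP (median 7.28), a narrow range, and from 6.41 to 7.03 in ALP (median 6.81). In ILCp it stood at 6.80, 6.86, 7.14, 6.93 and 6.62. Every EILP library was above every library of both other groups. The rise was 0.49 ± 0.13 log2 (SE, limma adjusted p = 0.0389), and leaving out any 1 of 9 libraries, ALP 1 to 4 or EILP 1, 2, 5, 6 or 7, ended the call (limma adjusted p 0.0517 to 0.0777). Psmd3 and Psme3 did not overlap either, at 0.36 ± 0.10 (limma adjusted p = 0.0557) and 0.35 ± 0.12 (limma adjusted p = 0.124). Such separation upwards held for 2.36% of all genes and for 6.12% of the members, and downwards for 2.38% and for no member. At an unadjusted limma p below 0.05, 11 members were higher and 0 lower, against 8.63% and 8.83% of all genes.

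No gene of the other roles, and no other non-ATPase subunit, passed in this step, although some fold changes were as large as that of Psmd11 or larger. Alpha ring fold changes ran from -1.05 log2 for the low-level Psma8 to 0.28 for Psma2. Structural beta genes ran from 0.02 for Psmb1 to 0.24 for Psmb3, and 20S chaperones from -0.09 for Psmg3 to 0.49 for Psmg2. The non-ATPase subunits other than Psmd11 ran from -0.11 for Psmd12 to 0.37 for Psmd2, the 19S chaperones from 0.03 for Psmd5 to 0.23 for Psmd9, and the activators from -0.19 for Psme2b to 1.01 for Psme4. In batch 1 only 25 members lay above 0, against 32, 29 and 39 in batches 2, 4 and 5.

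Over the whole interval from ALP to ILCp, 2 of the 49 members fell, Psma5 and Psmb9, and none rose. The share called lower was 4.08% of the members and 4.39% of all genes, with 3.86% of all genes called higher. Below 0 lay 38 members, with a median of -0.22 log2 against -0.03 for all genes. At an unadjusted limma p below 0.05, 9 members were lower and 1, Psme4, higher, against 11.8% and 9.09% of all genes. This comparison shares its ILCp libraries with the second step and its ALP libraries with the first, and the first 2 steps share EILP. Psmb9 and Psmc5 were the members whose ILCp libraries all lay below ALP, 4.08% against 4.96% of all genes, and no member lay above ALP in this way, against 4.01% of all genes. The positive end was held by Psmd2 at 0.36 ± 0.18 (limma adjusted p = 0.267) and Psmd4 at 0.34 among 19S subunits, both of which bind ubiquitin or its shuttles. In Psmd4, ILCp 2 stood at 8.16 log2 CPM and the other ILCp libraries at 7.23 to 7.52. Its differences within batches 1, 2 and 4 were 0.12, 1.14 and -0.23. The lowest non-ATPase subunit was Psmd1 at -0.48, and the 19S chaperones ran from -0.35 for Psmd10 to 0.23 for Psmd5. All 8 alpha ring genes lay below 0, Psma7 least at -0.11, and so did the 4 structural beta genes, from -0.29 for Psmb2 to -0.02 for Psmb3. The ATPases ran from -0.41 for Psmc5 to 0.00 for Psmc1, the 20S chaperones from -0.78 for Psmg1 to -0.34 for Psmg2, and the activators from -0.56 for Psme2b to 1.16 for Psme4.

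The catalytic genes give the comparison of constitutive and immune subunits. Per kilobase of transcript, the geometric mean level in ALP was 406 CPM for Psmb6, 354 for Psmb8, 194 for Psmb9, 189 for Psmb5, 107 for Psmb10 and 96.5 for Psmb7. Psmb6 and Psmb8 overlapped, as did Psmb9 with Psmb5 and Psmb10 with Psmb7, so on this scale the order had 3 steps without overlap between them. Per kilobase of coding sequence Psmb8 came first, at 696 against 454 CPM for Psmb6 and without overlap. The other 4 kept their order on that scale, but Psmb9 then overlapped Psmb6 and not Psmb5, and Psmb5 overlapped Psmb10. Among the 49 members, ranked per kilobase of transcript, Psmb9 went from place 13 in ALP to 17 in EILP and 28 in ILCp, while Psmb8 stood at 7, 6 and 4.

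Of the 3 constitutive genes, Psmb5 fell from EILP to ILCp. Psmb5, the chymotrypsin-like subunit (chr14:54614119-54618022), stood at 7.29, 6.82, 7.05, 6.98 and 7.13 log2 CPM in ILCp, 7.50 to 7.85 in EILP (median 7.71) and 7.09 to 7.58 in ALP (median 7.43). ILCp lay below EILP without overlap and overlapped ALP. The fold change was -0.63 ± 0.14 log2 (SE, limma adjusted p = 0.0238). The call did not hold without EILP 2, EILP 5 or ILCp 2 (limma adjusted p 0.0562 to 0.0947). The fold changes from ALP were 0.28 in EILP and -0.36 in ILCp, neither passing.

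Psmb6, the caspase-like subunit, stood at 8.27, 7.72, 7.88, 7.60 and 7.92 log2 CPM in ILCp, against 8.21 to 8.49 in EILP (median 8.40) and 7.82 to 8.66 in ALP (median 8.43). Only ILCp replicate 1 reached the EILP range. The fold change was -0.51 ± 0.17 log2 against EILP (limma adjusted p = 0.132), and -0.46 against ALP. Psmb7, the trypsin-like subunit, had the smallest range of the 3, with 6.94, 6.80, 6.64, 6.46 and 6.66 in ILCp, 6.65 to 7.12 in EILP (median 6.93) and 6.64 to 6.90 in ALP (median 6.81). The groups overlapped, and its fold change was -0.18 from EILP to ILCp. Psmb7 exons overlap Nek6 on the other strand.

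Of the 3 immune genes, Psmb9 fell and the other 2 did not pass in any comparison. Psmb8, the immune counterpart of Psmb5, stood at 9.35, 8.94, 8.76, 8.96 and 9.30 log2 CPM in ILCp, 9.10 to 9.46 in EILP (median 9.32) and 9.04 to 9.26 in ALP (median 9.18). The ILCp libraries extended both above and below ALP. Exons of Psmb8 overlap Gm20496 on the other strand, which was not analysed here. Its fold changes were 0.14 log2 from ALP to EILP, -0.25 from EILP to ILCp and -0.11 from ALP to ILCp. Psmb10, the counterpart of Psmb7, stood at 7.53, 7.41, 6.77, 7.15 and 7.32 in ILCp, 7.02 to 7.85 in EILP (median 7.41) and 6.75 to 7.30 in ALP (median 7.18). The groups overlapped, with fold changes of 0.32, -0.21 and 0.11 in the same order.

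**Figure D3:**
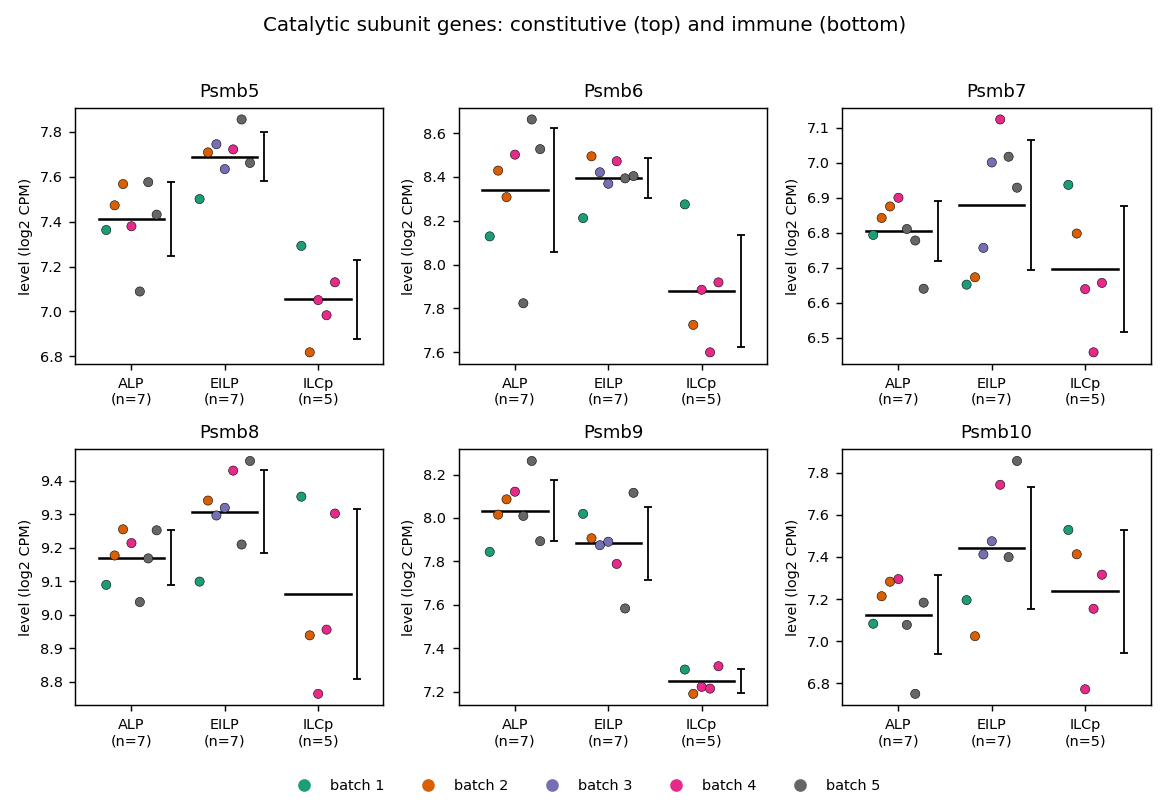
Level (log2 CPM) of the constitutive (top) and immune (bottom) catalytic subunit genes, 1 point per library, coloured by sequencing batch, with the group mean (line) and SD (bar). The 5 ILCp libraries of Psmb9 lie between 7.19 and 7.32, below all libraries of ALP and EILP.

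The fall of Psmb9, the immune counterpart of Psmb6, from ALP to ILCp held in more of the settings tried than any other call of a member. Psmb9 (chr17:34181987-34187764) stood at 7.30, 7.19, 7.22, 7.21 and 7.32 log2 CPM in ILCp, 7.58 to 8.12 in EILP (median 7.89) and 7.84 to 8.26 in ALP (median 8.02). All 5 ILCp libraries lay below all 14 others, and Plzf-cre-GFP/+ replicates 4 and 5 lay with the rest. From ALP to ILCp the level fell by 0.78 ± 0.13 log2 (SE, limma adjusted p = 0.000868), to 0.581 of the ALP level. The differences within batches 1, 2 and 4 were -0.54, -0.86 and -0.87. The call held in each of the 34 other settings tried, with fold changes from -0.85 to -0.66 and limma adjusted p up to 0.0309. From EILP to ILCp the fold change was -0.63 ± 0.13 log2 (limma adjusted p = 0.0154), and -0.72, -0.72 and -0.54 within the batches. That call was lost in 6 of 34 settings, among them without ILCp replicate 2 (limma adjusted p = 0.0525). From ALP to EILP it was -0.15 ± 0.11 (limma adjusted p = 0.517).

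Psmb9 starts beside Tap1, a subunit of the transporter that carries proteasome peptides to MHC class I, and the pair is transcribed in opposite directions. In the RefSeq annotation of GRCm38.p6 the starts are at chr17:34187330 for Psmb9 and chr17:34187556 for Tap1, with 225 bases between them. The stretches that carry the motif matches nearest to the Psmb9 start are shown on its strand, 5′ to 3′, because that interval serves both genes. Capitals mark a GC box (GGGCGG, 55 to 50 bases before the start) in the first, at chr17:34187368-34187397 on the minus strand. In the second, at chr17:34187331-34187360, they mark the reverse complement of a CCAAT box, 8 to 4 bases before the start.
Psmb9 GC box: tgcgcgatgatgGGGCGGggcctcagtctg
Psmb9 CCAAT box: cctgcaccgcgcgcagccgctgATTGGaaa
In the 300-base windows around RefSeq starts, on both strands, GGGCGG occurred in 23 of the 41 members that had a window and in 35.9% of 27018 genes. CCAAT occurred in 14 of the 41 and in 37.9% of all. An interferon-response type of element, GAAA repeated after a gap of 2 bases, was matched in 5 of the 41, Psmb3, Psmd4, Psmd9, Psme1 and Psmg4, and in 3.49% of all. TTCNNNGAA, a STAT type, was matched in Psmb8, Psmd2 and Psmg1, and in 8.47% of all. These are matches of letters, not measured binding.

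Tap1 had a fold change near 0 from EILP to ILCp, where Psmb9 fell. Tap1 stood at 7.58, 8.36, 8.09, 7.86 and 8.09 log2 CPM in ILCp, 7.78 to 8.22 in EILP (median 7.96) and 8.12 to 8.82 in ALP (median 8.42). Its ILCp libraries spanned the EILP range, at 0.03 ± 0.18 log2 (limma adjusted p = 0.955), and its fold changes from ALP were -0.49 in EILP and -0.45 in ILCp. The difference Psmb9 minus Tap1 within a library was -1.17 to -0.28 in ILCp and -0.20 to 0.26 in EILP, without overlap. It changed by -0.58 log2 (two-sided exact permutation test within batches, p = 0.0625, the smallest that 16 arrangements allow). That difference was chosen after the values of both genes had been seen. The Gencode model of Psmb9 overlaps the first exon of Tap1, and reads from the 2 strands there cannot be told apart. Tap2, the other transporter subunit, had a fold change of 0.41 ± 0.17 from EILP to ILCp (limma adjusted p = 0.22).

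**Figure D4:**
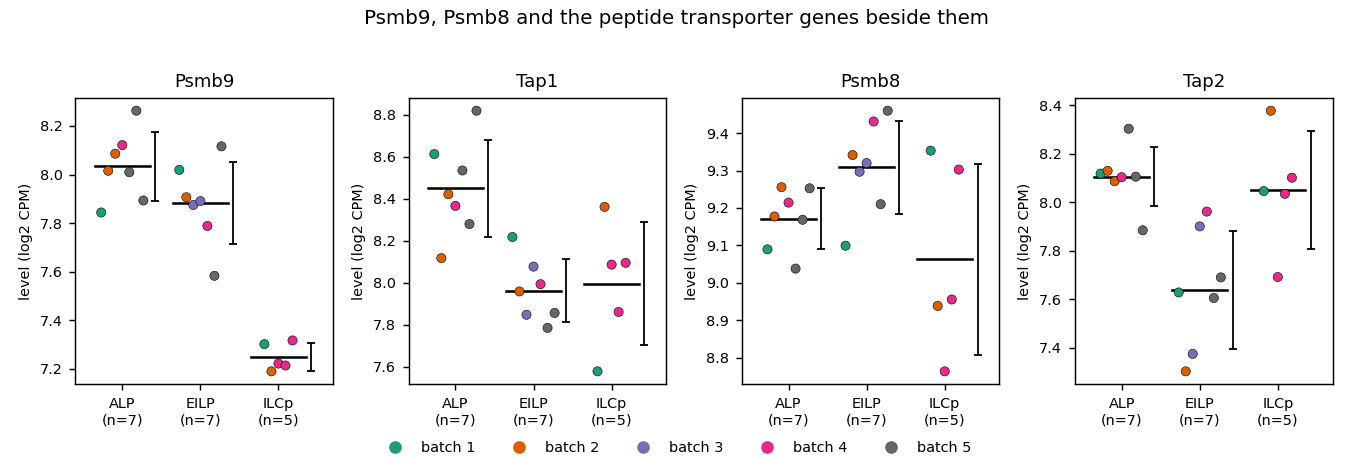
Level (log2 CPM) of Psmb9, Tap1, Psmb8 and Tap2, which lie side by side on the chromosome, 1 point per library, coloured by batch, with the group mean (line) and SD (bar). ILCp is below EILP without overlap in Psmb9, whereas the groups overlap in Tap1, Psmb8 and Tap2.

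The exchange of each constitutive subunit for its immune counterpart was read as the difference of the pair within a library. None of the 9 tests passed, with exact permutation p adjusted over the 9 of 0.3 or above. Those from EILP to ILCp and from ALP to ILCp could not have passed after adjustment. Their 16 and 24 arrangements allow no exact permutation p below 0.0625 and 0.0417. Only the tests from ALP to EILP, with a smallest possible exact permutation p of 0.00833, could have passed. Gene length cancels in these changes but not in the differences themselves, so only the changes were compared. Psmb8 minus Psmb5 was 1.76 ± 0.12 log2 (SD, n = 7) in ALP, 1.62 ± 0.14 (SD, n = 7) in EILP and 2.01 ± 0.18 (SD, n = 5) in ILCp. It was highest in ILCp, where 4 of 5 libraries exceeded all of ALP and EILP and ILCp replicate 3, at 1.71, lay among them. Within batches the change was -0.15 from ALP to EILP (two-sided exact permutation p = 0.133), 0.38 from EILP to ILCp (two-sided exact permutation p = 0.125, smallest possible 0.0625) and 0.28 from ALP to ILCp (exact permutation p = 0.167, smallest possible 0.0417).

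Psmb9 minus Psmb6 had its lowest mean in ILCp. It was -0.31 ± 0.25 log2 (SD, n = 7) in ALP, -0.51 ± 0.22 (SD, n = 7) in EILP and -0.63 ± 0.22 (SD, n = 5) in ILCp. From ALP to EILP it changed by -0.21 (two-sided exact permutation p = 0.225), with the same sign as Psmb8 minus Psmb5. The groups overlapped. The change from ALP to ILCp was -0.32 (two-sided exact permutation p = 0.0833) and from EILP to ILCp -0.15 (exact permutation p = 0.875). Psmb10 minus Psmb7 was 0.32 ± 0.18 (SD, n = 7) in ALP, 0.56 ± 0.20 (SD, n = 7) in EILP and 0.54 ± 0.23 (SD, n = 5) in ILCp, with a change of 0.24 from ALP to EILP (exact permutation p = 0.1). The mean over the 3 pairs lay between 0.31 and 0.81 in all 19 libraries, and its group means were 0.59 in ALP, 0.56 in EILP and 0.64 in ILCp. The group means of the 3 pairs thus had no common direction, which is a description and not a test result.

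**Figure D5:**
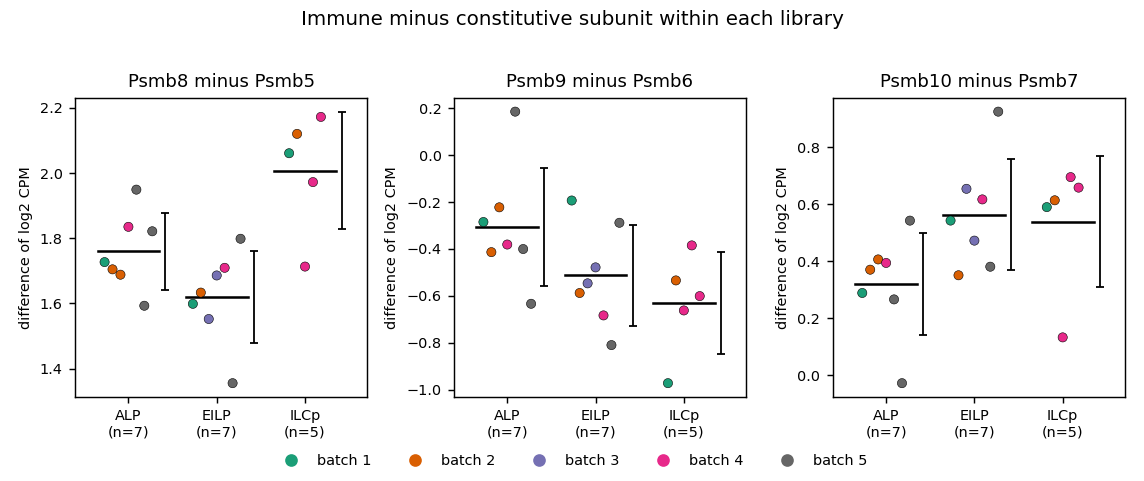
Difference of log2 CPM between each immune subunit and its constitutive counterpart, 1 point per library, coloured by batch, with the group mean (line) and SD (bar). Psmb8 minus Psmb5 is highest in ILCp (mean 2.01) and Psmb9 minus Psmb6 lowest there (mean -0.63), with overlap between groups in all 3 panels.

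The window before the Psmb5 start is shown because Psmb5 is the constitutive gene that fell and holds a match of the antioxidant-response type, TGACNNNGC, the kind of element bound by the proteasome-inducing factor Nfe2l1. It lies at chr14:54618023-54618245 (GRCm38.p6, minus strand, RefSeq), 250 to 28 bases before the start, and capitals mark the match at 47 to 39 bases before it.
Psmb5 promoter: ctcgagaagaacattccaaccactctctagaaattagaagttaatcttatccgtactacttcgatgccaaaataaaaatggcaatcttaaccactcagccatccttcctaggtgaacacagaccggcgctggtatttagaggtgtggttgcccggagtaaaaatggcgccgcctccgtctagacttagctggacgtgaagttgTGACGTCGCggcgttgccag
The motif was matched in 6 of the 41 members with a window, Psmb5, Psmb6, Psmc6, Psmd12, Psmd9 and Psme4, and in 12.5% of all 27018 genes.

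Genes that work with the proteasome were read from lists. Of 11 listed transcriptional regulators of proteasome genes, Irf8, an interferon regulatory factor of myeloid and dendritic cells, fell by 2.18 ± 0.49 log2 from EILP to ILCp (limma adjusted p = 0.0243) and by 2.88 ± 0.47 from ALP to ILCp (limma adjusted p = 0.00107). Nfya, a subunit of the CCAAT-binding factor, fell by 1.64 ± 0.40 from ALP to ILCp (limma adjusted p = 0.0181). Ngly1, the enzyme that removes sugars from Nfe2l1, rose by 0.85 ± 0.23 over the same interval (limma adjusted p = 0.0345). None of the 11 passed from ALP to EILP.

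Of 19 interferon-stimulated genes, 6 fell from ALP to EILP, none rose, and all 19 lay below 0 with a median of -1.998 log2. In that step 2.79% of all genes were called lower, and their median was 0. Irf7 fell by 1.59 ± 0.21 (limma adjusted p = 0.000158) and Ifi44 by 7.10 ± 0.99 (limma adjusted p = 0.000309). From ALP to ILCp 7 fell, among them Bst2, a gene also of plasmacytoid dendritic cells, by 1.44 ± 0.22 (limma adjusted p = 0.000674) and Irf9 by 0.83 ± 0.19 (limma adjusted p = 0.0141). In that interval, over which Psmb9 fell, 17 of the 19 lay below 0 with a median of -1.44. Of all genes, 4.39% were called lower there, with a median of -0.03. From EILP to ILCp, where Psmb9 also fell, none of the 19 passed and the median was 0.70, against -0.08 for all genes. From ALP to EILP, the fold changes of Psmb8, Psmb9 and Psmb10 were 0.14, -0.15 and 0.32. The 6 dendritic cell markers summed to 256 to 676 CPM in ALP, 164 to 556 in EILP and 192 to 842 in ILCp, and 3 of the 6 fell from ALP to each later group. The shares of all genes called lower were 2.79% in EILP and 4.39% in ILCp. In every EILP and ILCp library the highest of the 6 was Cd74, with 49.4% to 93.7% of the sum, and its fold changes from ALP were 1.11 log2 in EILP (limma adjusted p = 0.212) and 1.56 in ILCp (limma adjusted p = 0.0849). Clec9a had a mean below 0 log2 CPM in all 3 groups, Siglech and Itgax in EILP and ILCp, and Ccr9 in EILP. The part of dendritic cells in the Psmb9 values was not tested.

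Of 10 proteasome partners outside the name rule, Uchl5, a deubiquitinase docked on the 19S particle, fell by 0.56 ± 0.13 log2 from EILP to ILCp (limma adjusted p = 0.0277) and by 0.52 ± 0.13 from ALP to ILCp (limma adjusted p = 0.0164). The other 9 did not pass in any comparison. None of 15 genes of ubiquitin supply and shuttling passed in any comparison, and their median from EILP to ILCp was 0.01 log2, against -0.32 for the proteasome members.

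Of 10 genes of class I peptide handling, Calr, a chaperone of MHC class I, rose by 1.16 ± 0.17 log2 from ALP to EILP (limma adjusted p = 0.000468). It then fell by 1.07 ± 0.20 from EILP to ILCp (limma adjusted p = 0.00849). Tapbp, which bridges the transporter and MHC class I, rose by 0.54 ± 0.14 from ALP to EILP (limma adjusted p = 0.0305) and by 0.93 ± 0.16 from ALP to ILCp (limma adjusted p = 0.00131). The other 8 did not pass in any comparison. From ALP to EILP and from ALP to ILCp 7 of the 10 lay above 0 and 3 below, Nlrc5 lowest in the latter at -1.29 log2. The shares of all genes called higher were 2.25% and 3.86%.

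Cell cycle genes lay in the opposite direction to most members in the first step. Of 10, 4 fell from ALP to EILP and all 10 lay below 0, where 40 of the 49 members lay above it. Cdk1 fell by 0.80 ± 0.16 log2 (limma adjusted p = 0.00764) and Cdc20 by 0.76 ± 0.16 (limma adjusted p = 0.00807) in that step. From ALP to ILCp 5 fell, where 4.39% of all genes were called lower. From EILP to ILCp none passed, with a median of -0.21, against -0.08 for all genes.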

How the data were processed

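Per the labels' protocols, column-purified RNA of sorted bone marrow progenitors was amplified with a SMARTer low-input kit and made into libraries with Nextera XT, which keeps no strand. The submitters' processing notes name the build mm10 and the tools STAR 2.4.0h, bcl2fastq 1.8.4, limma and edgeR. The deposited table holds log2 CPM for 18607 genes in 19 libraries (ALP 7, EILP 7, ILCp 5). Counts were not used here, so depth is unknown and no counting interval was computed. From the values, the authors' log2 numbers were already cleared of batch: fold changes with and without a batch term were the same, as in the median of the members from EILP to ILCp (-0.32). This step, which no label records, makes SDs within groups too small.

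All genes were fitted in limma 3.58.1 under R 4.3.3 (trend, groups plus 5 batches, 12 residual degrees of freedom, two-sided), adjusted over all genes. Checks on simulated data preceded use. Batch 3 holds EILP alone and batch 5 no ILCp. Subunit pairs were tested by exact permutation within batches. Named members were the 6 catalytic genes, every called member, and the extremes of each role. The members, lists and rules were chosen with earlier results of these data known. Exon models and coordinates came from Gencode on GRCm38, and promoter windows (250 bases before to 50 after the start) from RefSeq on GRCm38.p6. Other batch terms, variance options, scalings, filters and sets of libraries were tried.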

Additional observations from a re-analysis of the deposited data

Results flagged for a closer look

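One value of the 14 genes described in full stood apart within its group. Psmb10 in ALP replicate 6 was at 6.75 log2 CPM, while the other 6 ALP libraries lay between 7.08 and 7.30. Its distance to the nearest library was 0.601 of the range of the group. Of 42 groups of libraries checked, this was the 1 flag, and chance flags about 1 group in 20.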

How the results depend on the processing

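The numbers of members called (1, 6 and 2 for EILP against ALP, ILCp against EILP and ILCp against ALP) changed with the model, and the cause was not tested. In that order they were 8, 17 and 11 without a batch term and 11, 35 and 32 with batch as a random effect. Limma without trend gave 0, 0 and 1, and a replicate block gave 4, 11 and 6. A replicate block with batch gave 0, 2 and 2. Without a batch term, calls over all genes were 1269 higher and 1282 lower, 1339 and 1708, and 1680 and 2176. With batch as a random effect they were 1707 and 1684, 3625 and 4576, and 5396 and 6216. The main model gave 419 and 520, 327 and 271, and 718 and 816. The larger member counts without a batch term and with the random effect thus came with more calls over all genes. Same-numbered libraries correlated at -0.64 to 0.12, which in values already cleared of batch cannot decide whether they are pairs. The numbers were not read as pairs. Only batches with both groups gave 2, 2 and 1, and only the groups compared 1, 1 and 1. From EILP to ILCp the former called Psmb9 and Psmd8, and the latter Psmd8 alone. Psmd8 was not among the 6 called in the main model, and with only the groups compared none of those 6 was called. Psmc5 was at a limma adjusted p of 0.0656 and 0.104 in the 2 settings. The counts were 2, 3 and 1 without the Plzf-cre-GFP/+ libraries. The settings without batch 4 (1, 1 and 1) and without ALP 7 and EILP 2 (1, 2 and 2), chosen after seeing the data, gave lower counts from EILP to ILCp. Calls lower over all genes were there 157 and 113, against 271. Quantile normalization gave 2, 6 and 2, a mean above 0 log2 CPM 2, 7 and 5, and a fold of at least 1.5 gave 0, 6 and 2. Median centring gave 10, 7 and 2, and moved the median of all genes to 0.22, -0.17 and 0.09, with the members 0.13 above, 0.24 and 0.18 below it, as before. Calls over all genes were then 804 higher and 395 lower (419 and 520 before), 279 and 390 (327 and 271) and 813 and 584 (718 and 816). Leaving out 1 library gave 0 to 3, 1 to 8 and 1 to 7. The count from EILP to ILCp fell to 3 without EILP 2, 2 without EILP 5 and 1 without ILCp 2. Calls lower over all genes were then 139, 96 and 125, against 271. The count from ALP to EILP was 0 without ALP 2, 3 or 4 or EILP 6 or 7, 3 without ILCp 1, and 2 without EILP 3 or 4 or ILCp 2 to 5. That from ALP to ILCp was 5 without ALP 5, 4 without EILP 7 or ILCp 3, 7 without ILCp 1 and 1 without ILCp 2. Signs turned in values near 0. For EILP against ALP these were Psmb6 with the block and batch (-0.091) and Psmb9 with median centring (0.065). For ILCp against ALP they were Psmb7 and Psmb8 with median centring (0.017 each) and Psmb7 without batch 4 (0.11). For ILCp against EILP they were Psmb7 (0.084) and Psmb10 (0.15) without batch 4. With 1 library left out, Psmb6 (-0.041 to 0.12) and Psmb7 (-0.0062 to 0.15) from ALP to EILP and Psmb10 from ALP to ILCp (-0.037 to 0.20) also crossed 0. Of the pairs from ALP to EILP, the replicate block gave -0.14 for Psmb8 minus Psmb5 (exact permutation p = 0.0156) and 0.24 for Psmb10 minus Psmb7 (exact permutation p = 0.0312), the latter 0.24 also with labels permuted freely (exact permutation p = 0.0221). Free permutation gave Psmb8 minus Psmb5 0.39 from EILP to ILCp (exact permutation p = 0.00253) and 0.25 from ALP to ILCp (exact permutation p = 0.0215), and Psmb9 minus Psmb6 -0.32 from ALP to ILCp (exact permutation p = 0.0341). These p-values are unadjusted. Psmb10 minus Psmb7 from EILP to ILCp was -0.025 with free permutation and -0.058 without the Plzf-cre-GFP/+ libraries. With 1 library left out it ran from -0.054 to 0.16, Psmb9 minus Psmb6 in that step from -0.36 to 0.10, and Psmb8 minus Psmb5 from ALP to EILP from -0.20 to -0.067, with exact permutation p = 0.0139 without ALP 6 (-0.18) and exact permutation p = 0.0208 without EILP 7 (-0.20). Unknown depth limits what can be said of Psma8 and other low genes.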
